A study of Mus musculus with 4 samples.

Results

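The cathepsins are the main proteases of the lysosome, and 10 of their genes were followed here in mouse peritoneal macrophages with and without Ch25h, the gene of cholesterol 25-hydroxylase. They were taken by symbol from a table of 23735 loci, and all 10 (Ctsa, Ctsb, Ctsc, Ctsd, Ctse, Ctsf, Ctsh, Ctsk, Ctsl and Ctsz) had a row of their own. The macrophages came from C57BL/6 mice aged 6 weeks that had received 3% thioglycolate, a sterile irritant that draws macrophages into the peritoneal cavity, 3 days earlier, and were then cultured. The Ch25h_WT group (genotype ApoE-/-/Ch25h+/+) and the Ch25h_KO group (genotype ApoE-/-/Ch25h-/-) held 2 libraries each, so both groups were labelled as lacking apolipoprotein E. The labels name 12 mice for each group, sequenced as biological duplicates, without saying which mice went into which library. SD therefore measures only the spread between 2 libraries per group, part of which may be technical. The p-values combine that spread with a spread that limma estimates over all tested loci.

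Cathepsins are made as inactive proenzymes, carried to the lysosome with a mannose 6-phosphate tag and activated there by acid and by other proteases. Ctsd and Ctse encode aspartic proteases, Ctsa a serine carboxypeptidase, and the other members cysteine proteases of the papain family. In macrophages they digest ingested proteins, trim antigens and the invariant chain of MHC class II, and, once secreted, cut extracellular matrix.

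Levels are in FPKM (fragments per kilobase of transcript, scaled to the mapped fragments of the library), a unit per length in which genes can be compared with each other. The implied depth was 9550000 to 12400000 fragments per library. Ch25h was 63.3 and 65.3 FPKM in Ch25h_WT and 4.25 and 5.53 FPKM in Ch25h_KO. Apoe was 614 and 610 FPKM in Ch25h_WT and 3683 and 3373 FPKM in Ch25h_KO, in libraries that were all labelled ApoE-/-. A value per locus does not tell a disrupted transcript from a functional one. The log2 difference, Ch25h_KO minus Ch25h_WT, was -3.48 for Ch25h and 2.52 for Apoe (limma adjusted p = 0.0031 and 0.0013). Both differences lie between the same groups, so what goes with either cannot be told apart in the comparisons below. All 7 measured macrophage markers were detected, with Lyz2 (lysozyme) between 19566 and 20537 FPKM and Cd68, a lysosomal membrane protein of macrophages, between 469 and 492 FPKM. B cell markers were also present (Cd79a at 114 to 127 FPKM). In such bulk samples, fewer cells of a type and less RNA per cell cannot be told apart.

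Promoter sequences were available for 7 of the 10 members, in 8 windows of the mouse build GRCm38.p6 from RefSeq. They are shown for the E-box CACGTG, the core of the sites bound by TFEB and its relatives, the factors that drive lysosomal genes. In the 250 bases before the start site, CACGTG stood in 4 of the 8 windows, those of Ctsd, Ctsf and Ctsl and 1 of Ctsa. It stood in 6.02% of all 32851 windows searched the same way. The other window of Ctsa and those of Ctsc, Ctsk and Ctsz held none. The matches are given 5′ to 3′ on the strand of the gene, with the E-box in capitals; the second run of Ctsd is shorter because its window begins there.
Ctsd, 98 bases before the start site (chr7:142387908-142387937, minus strand): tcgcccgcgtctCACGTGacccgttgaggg
Ctsd, 245 bases before the start site (chr7:142388055-142388077, minus strand): tccccCACGTGacctgtatccag
Ctsa, 12 bases before the start site (chr2:164833749-164833778, plus strand): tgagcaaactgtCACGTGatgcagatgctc
Ctsf, 79 bases before the start site (chr19:4855074-4855103, plus strand): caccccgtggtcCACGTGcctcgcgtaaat
Ctsl, 236 bases before the start site (chr13:64370739-64370768, minus strand): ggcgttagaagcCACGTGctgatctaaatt
The longer form TCACGTGA, which contains CACGTG, was found in Ctsa and in the match of Ctsd nearer its start, and in 0.785% of all windows. The full palindrome known as the CLEAR element, which extends that form by 1 base on each side, was in none of the 8 windows and in 0.24% of all windows. All 3 motifs are the same read on either strand. A match is a run of letters and not a measured binding site, and binding was not measured in these samples.

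The levels of the 10 genes spanned a wide range, and their order was the same in all 4 libraries. From high to low it was Ctsd, Ctsb, Ctsz, Ctsl, Ctsa, Ctsh, Ctsc, Ctsf, Ctse and Ctsk. For 0 of the 9 neighbouring pairs in that order did the ranges over the 4 libraries overlap. Of the 10, 7 had a mean of at least 100 FPKM, from 122 FPKM for Ctsc to 3151 FPKM for Ctsd, and the other 3 lay between 1.19 FPKM (Ctsk) and 6.65 FPKM (Ctsf). Ctsd ranked 17 by mean level among all loci of the table, Ctsb 71 and Ctsz 96.

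**Figure D1:**
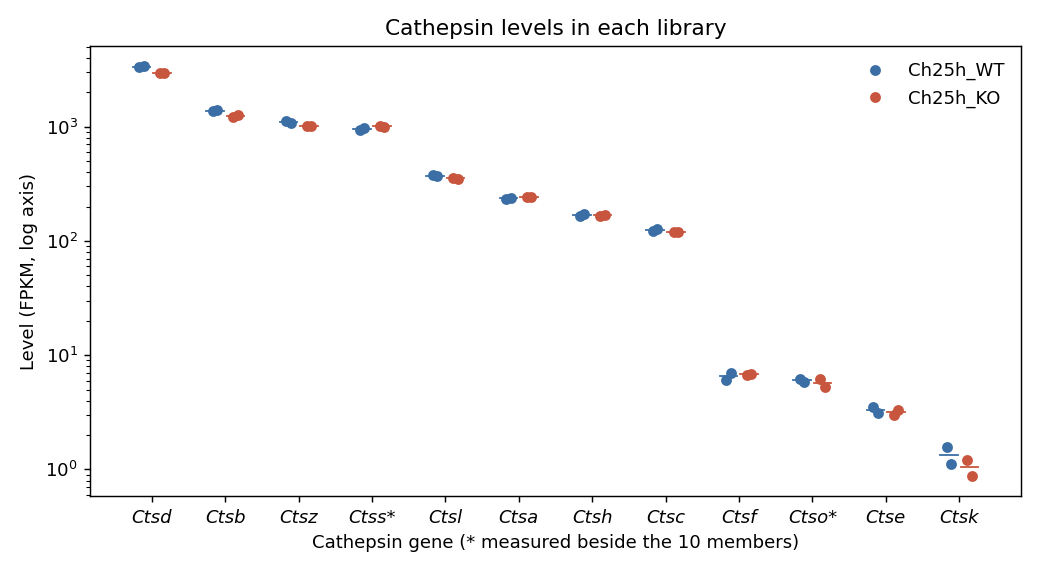
Level in FPKM (log axis) of the 10 cathepsins, and of Ctss and Ctso (marked *), with 1 point per library and a short line at the mean of the 2 libraries of a group. The genes fall into a high set above 100 FPKM and a low set under 10 FPKM, and the groups lie close together for every gene.

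None of the 10 cathepsins passed the threshold between the genotypes (limma on log2(FPKM + 1), Benjamini-Hochberg adjusted p under 0.05), against 0.437% of all 10074 loci tested. At unadjusted p under 0.05 the count was 2 of 10 (Ctsd and Ctsb, both lower in Ch25h_KO), against 20.9% of all loci in either direction and 11.5% on the lower side. All 10 passed the filter of a mean of at least 1 FPKM. The libraries of Ch25h_KO lay wholly below those of Ch25h_WT for 5 members (Ctsd, Ctsb, Ctsz, Ctsl and Ctsc), against 30.3% of all loci, and wholly above them for 1 (Ctsa), against 23.4%. The log2 difference, Ch25h_KO minus Ch25h_WT, was below 0 for 7 of 10 members and for 54.3% of all loci, with medians of -0.070 and -0.014. With limma's trend and robust options, which let the assumed spread follow the level, Ctsd and Ctsb passed (limma adjusted p = 0.011 and 0.044). In all, 786 of the 10074 loci passed with these options, 407 higher and 379 lower in Ch25h_KO, against 44 in the main analysis.

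**Figure D2:**
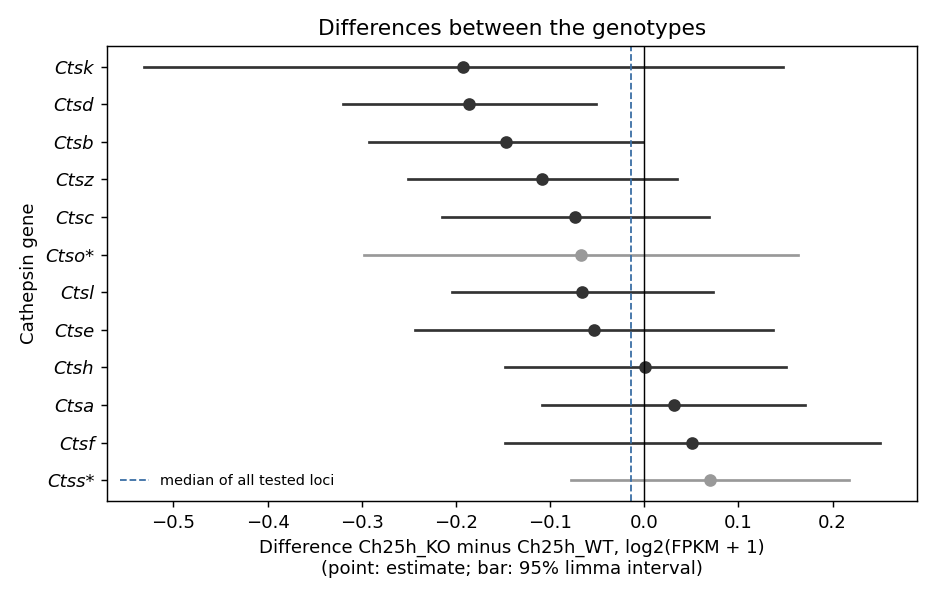
Difference between Ch25h_KO and Ch25h_WT on the log2(FPKM + 1) scale for each cathepsin, as the estimate (point) with its 95% limma interval (bar); Ctss and Ctso are marked *. The intervals of Ctsd and Ctsb lie below 0, the upper end of Ctsb at -0.001, and those of the other genes include 0.

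Ctsd, the principal aspartic endopeptidase of the lysosome, was the highest member. Its level was 3341 and 3366 FPKM in Ch25h_WT and 2930 and 2967 FPKM in Ch25h_KO. The groups did not overlap, and the mean was 3354 ± 18.1 against 2949 ± 26.7 FPKM (SD, n = 2 libraries per group). The log2 difference was -0.19 (95% interval -0.32 to -0.05, limma adjusted p = 0.16), and 11.6% of all tested loci had a lower difference. Ctse, the other aspartic protease and one of endosomes rather than lysosomes, was low throughout. It was 3.49 and 3.14 FPKM in Ch25h_WT and 3.01 and 3.32 FPKM in Ch25h_KO, and the groups overlapped (limma adjusted p = 0.72).

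Ctsb and Ctsz, cysteine proteases that trim peptides from their carboxyl end, followed Ctsd in level. Ctsb, which also cuts within proteins, was 1372 and 1394 FPKM in Ch25h_WT and 1222 and 1277 FPKM in Ch25h_KO. Both Ch25h_KO libraries were the lower ones, at a log2 difference of -0.15 (95% interval -0.29 to -0.001, limma adjusted p = 0.24). Ctsz was 1115 and 1069 FPKM in Ch25h_WT and 1012 and 1014 FPKM in Ch25h_KO. Here too both Ch25h_KO libraries were lower, and the SD was 32.1 FPKM in Ch25h_WT and 1.27 FPKM in Ch25h_KO (log2 difference -0.11, 95% interval -0.25 to 0.035, limma adjusted p = 0.34).

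Ctsl, an endopeptidase that processes proteins in the lysosome and trims the invariant chain in some cells, was 376 and 367 FPKM in Ch25h_WT. It was 358 and 351 FPKM in Ch25h_KO, so that the groups did not overlap, but the difference was small beside its error (log2 difference -0.066, SE 0.053, limma adjusted p = 0.52). Ctsc, the dipeptidyl peptidase that activates serine proteases of granules, was 123 and 128 FPKM in Ch25h_WT and 119 and 119 FPKM in Ch25h_KO. The groups lay apart by less than 4 FPKM at their nearest (log2 difference -0.073, SE 0.054, limma adjusted p = 0.49). Ctsh, an aminopeptidase, was 164 and 172 FPKM in Ch25h_WT and 166 and 170 FPKM in Ch25h_KO. Its group means were 168 FPKM in both, and the 95% interval of its log2 difference ran from -0.15 to 0.15 (limma adjusted p = 0.99).

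Ctsf and Ctsk were the low cysteine proteases. Ctsf, which can process the invariant chain in macrophages, was 6.09 and 6.95 FPKM in Ch25h_WT and 6.65 and 6.91 FPKM in Ch25h_KO, with overlapping groups (limma adjusted p = 0.74). Ctsk, the collagen-degrading protease of osteoclasts, was 1.56 and 1.11 FPKM in Ch25h_WT and 1.20 and 0.880 FPKM in Ch25h_KO. Its log2 difference of -0.19 had the widest error of the 10 (SE 0.13, 95% interval -0.53 to 0.15, limma adjusted p = 0.45), and the groups overlapped. It was -0.051 and -0.33 without Ch25h_WT replicates 1 and 2, and -0.31 and -0.078 without Ch25h_KO replicates 1 and 2.

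The low values could be turned back into fragments, because they kept the ratios of whole numbers once scaled by relative depth. The smallest such numbers for Ctsk were 30 and 17 fragments in Ch25h_WT and 19 and 13 in Ch25h_KO. Relative to depth, the Ch25h_KO to Ch25h_WT ratio of Ctsk was 0.769, with an exact 95% interval of 0.475 to 1.23 that covers counting error only. For Ctse the numbers were 93, 67, 66 and 68 fragments in the same order of libraries, a ratio of 0.946 (0.746 to 1.20), and for Ctsf they were 150, 137, 135 and 131, a ratio of 1.05 (0.883 to 1.24). All 3 intervals include 1.

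Ctsa, the serine carboxypeptidase that also shields the lysosomal sialidase Neu1 and the galactosidase Glb1 in a complex, was 232 and 240 FPKM in Ch25h_WT. It was 242 and 240 FPKM in Ch25h_KO, higher than both Ch25h_WT libraries by less than 1 FPKM at the nearest (log2 difference 0.031, SE 0.053, limma adjusted p = 0.77). Its partners did not pass either. Neu1 was 59.6 and 58.7 against 66.0 and 63.4 FPKM, and Glb1 was 159 and 160 against 142 and 147 FPKM at a locus that also carries Tmppe (limma adjusted p = 0.28 and 0.25). Galns, a sulfatase found in the same complex, was 13.2 and 13.1 against 15.1 and 14.7 FPKM (limma adjusted p = 0.19). Of the 4 genes of this list 3 were on the higher side, with a median log2 difference of 0.078, and 1 had an unadjusted p under 0.05 (20.9% of all loci). In the RefSeq genes of GRCm38.p6, Ctsa overlaps Neurl2 and Pltp, Ctsb overlaps Fdft1 and Ctsz overlaps Nelfcd. Without stated strand, reads from shared stretches cannot be assigned. Pltp, the phospholipid transfer protein gene, was 684 and 668 against 717 and 723 FPKM, while Fdft1 and Nelfcd stayed under 30 FPKM.

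The summed level of the 10 cathepsins was 6734 and 6747 FPKM in Ch25h_WT and 6060 and 6150 FPKM in Ch25h_KO. This sum was 0.906 of the Ch25h_WT level in Ch25h_KO, and is given as a description, with no test. Ctsd made up 49.8% ± 0.197 of it in Ch25h_WT and 48.3% ± 0.0617 in Ch25h_KO (SD, n = 2 libraries per group). Ctsd, Ctsb and Ctsz together held 86.5% ± 0.109 and 85.4% ± 0.211. As a share of all FPKM of a library, the 10 genes held 0.962% and 0.953% in Ch25h_WT and 0.829% and 0.858% in Ch25h_KO. Saa3, an acute phase gene, held 16.3% to 17.2% of a library, and with it left out the shares of the 10 were 1.15%, 1.14%, 1.00% and 1.04%.

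**Figure D3:**
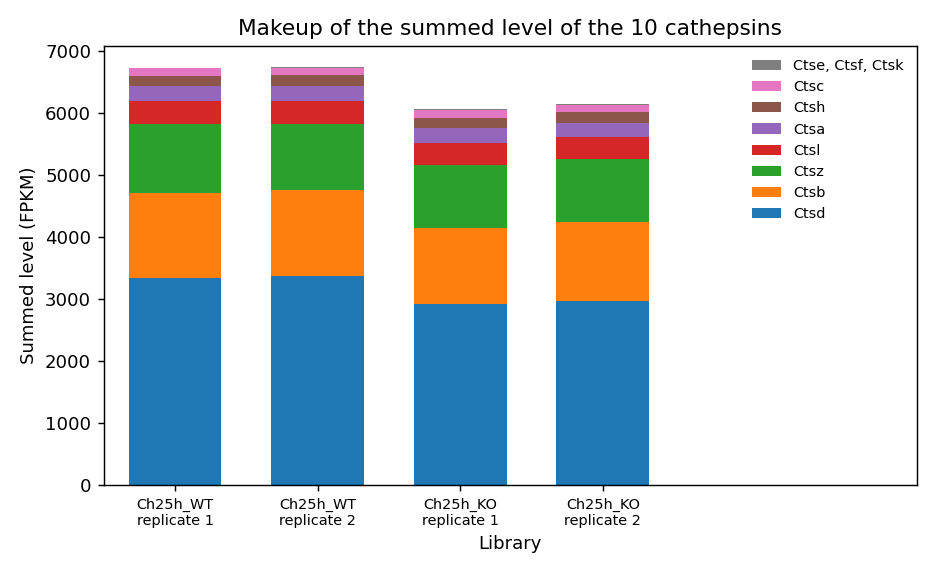
Stacked level in FPKM of the 10 cathepsins in each of the 4 libraries. The Ch25h_KO stacks reach 6060 and 6150 FPKM and the Ch25h_WT stacks 6734 and 6747 FPKM, and Ctsd forms close to 50% of each (48.3% to 49.9%).

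The 13 other cathepsin genes of the table were compared with these; 2 were tested, and 0 passed with limma, at unadjusted p under 0.05 or with the trend and robust options. Ctss, the endopeptidase that cuts the invariant chain in antigen-presenting cells, was 939 and 976 FPKM in Ch25h_WT and 1022 and 988 FPKM in Ch25h_KO. Its range overlapped that of Ctsz, and its Ch25h_KO libraries lay above the Ch25h_WT ones (log2 difference 0.070, 95% interval -0.078 to 0.22, limma adjusted p = 0.52). Ctss made up 12.4% ± 0.283 of all measured cathepsins in Ch25h_WT and 14.1% ± 0.410 in Ch25h_KO. Ctso, a widely expressed cysteine protease, was 6.18 and 5.87 against 6.21 and 5.24 FPKM, near the level of Ctsf (limma adjusted p = 0.71). Ctsg, a serine protease of neutrophil and mast cell granules, and Ctsw, of T and NK cells, were under 1 FPKM in every library, with at most 6 fragments each. Cts8 was listed above 0 in 1 library, at 0.038 FPKM, and the other 8 genes (Ctsj, Ctsm, Ctsq, Ctsr, Cts3, Cts6, Cts7 and Ctsll3), which belong to or lie beside a group of placental cathepsins, were listed at 0 in all libraries.

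Cystatins and stefins are tight inhibitors of cysteine cathepsins, secreted or cytosolic. Of 13 listed inhibitors (11 cystatins and stefins and 2 serpins) 7 were tested and none passed with limma, with 2 at unadjusted p under 0.05 (the stefin relative Stfa2l1 higher, Serpinb1a lower; 20.9% of all loci reached this), 4 higher and 3 lower, and a median of 0.021. With the trend and robust options 1 passed, Serpinb1a on the lower side. Cst3 (cystatin C), the main secreted inhibitor, was 1958 and 1912 FPKM in Ch25h_WT and 2141 and 1972 FPKM in Ch25h_KO, higher in both (limma adjusted p = 0.49). Cstb (stefin B), its cytosolic counterpart, was 1132 and 1176 against 1187 and 1155 FPKM, with overlapping groups (limma adjusted p = 0.86). Stfa3 was 163 and 181 against 154 and 157 FPKM (limma adjusted p = 0.34), and Serpinb1a, which inhibits granule serine proteases such as Ctsg, was 120 and 123 against 103 and 98.2 FPKM (limma adjusted p = 0.12). The summed level of 10 measured cysteine cathepsins (Ctss, Ctso and Ctsw included) was 1.26 times that of the 11 cystatins and stefins in each Ch25h_WT library, and 1.12 and 1.20 times in the Ch25h_KO libraries. This ratio was formed after values had been seen and has no test.

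Genes that sort and activate lysosomal enzymes were all measured. Of 12 tested, none passed with limma and 3 were lower at unadjusted p under 0.05 (Scarb2, Igf2r and Psap), against 11.5% of all loci on that side. The list had 8 members on the lower and 4 on the higher side and a median of -0.045. The same 3 genes passed with the trend and robust options, where 379 of all 10074 loci passed on the lower side. Scarb2 (LIMP-2), a lysosomal membrane protein that carries glucocerebrosidase to the lysosome, was 111 and 114 FPKM in Ch25h_WT and 90.0 and 90.9 FPKM in Ch25h_KO (log2 difference -0.31, limma adjusted p = 0.10). Igf2r, the large mannose 6-phosphate receptor that binds tagged cathepsins, was 33.7 and 33.8 against 25.4 and 28.4 FPKM (log2 difference -0.32, limma adjusted p = 0.12). In both genes the 2 Ch25h_KO libraries were the lower ones. Gnptg, a subunit of the enzyme that adds the tag, was 16.9 and 18.0 against 17.8 and 17.8 FPKM, and the sorting receptor Sort1 was 4.85 and 5.10 against 5.18 and 5.11 FPKM, neither near the threshold (limma adjusted p = 0.84 and 0.70).

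The factors that control lysosomal genes were tested as 10 genes, of which none passed with limma. At unadjusted p under 0.05 the count was 2, near the 20.9% of all loci. The list was split, 6 higher and 4 lower, with a median of 0.0088. It joins factors that drive lysosomal genes with ones that restrain them, so this split has no single regulatory direction. Tfec, a macrophage relative of TFEB, was 39.4 and 42.3 FPKM in Ch25h_WT and 32.9 and 33.6 FPKM in Ch25h_KO (log2 difference -0.29, limma adjusted p = 0.12). Flcn, folliculin, which holds TFEB and TFE3 outside the nucleus, was 32.1 and 32.6 against 37.7 and 37.0 FPKM (log2 difference 0.20, limma adjusted p = 0.15). Tfec and Flcn lay in opposite directions, with no overlap between groups, and both passed with the trend and robust options. Mitf was 11.3 and 9.80 against 9.99 and 9.28 FPKM, and Rraga, a GTPase that recruits the kinase mTOR to lysosomes, was 52.8 and 50.1 against 55.1 and 52.9 FPKM (limma adjusted p = 0.48 and 0.55).

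A list of other proteases, mostly lysosomal, was tested as 8 genes, 4 on each side, with a median of -0.014. None passed with limma, 1 lay on each side at unadjusted p under 0.05 (Napsa higher, Cpq lower; 9.38% and 11.5% of all loci), and Napsa passed with the trend and robust options. Napsa, an aspartic protease related to Ctsd, was 80.8 and 86.3 FPKM in Ch25h_WT and 102 and 104 FPKM in Ch25h_KO (log2 difference 0.30, limma adjusted p = 0.11), and so stood on the side opposite to Ctsd. The carboxypeptidase Scpep1 was 199 and 198 against 211 and 214 FPKM, and Cpq, another carboxypeptidase, was 34.8 and 35.8 against 31.9 and 32.1 FPKM (limma adjusted p = 0.34 and 0.24). Tpp2, a cytosolic peptidase that the list also holds, was 28.2 and 27.7 against 24.9 and 26.7 FPKM (limma adjusted p = 0.37).

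The list of granule serine proteases, several of which Ctsc activates, held 6 tested genes. Of these 5 were lower in Ch25h_KO at unadjusted p under 0.05 (Prtn3, Tpsb2, Cma1, Mcpt4 and Tpsab1, against 11.5% of all loci), and none passed the adjusted threshold with limma. All 5 passed with the trend and robust options, where 379 of all 10074 loci passed on the lower side. The median log2 difference was -0.43. Prtn3 (proteinase 3) was 9.93 and 11.2 FPKM in Ch25h_WT and 6.14 and 5.48 FPKM in Ch25h_KO, and the tryptase Tpsb2 was 58.7 and 61.2 against 35.4 and 39.5 FPKM (log2 differences -0.77 and -0.67, each with limma adjusted p = 0.066). Among the 7221 loci whose mean reached 5 FPKM, 175 passed, against 44 of 10074 in the main analysis. Prtn3 and Tpsb2 were among the 175 (limma adjusted p = 0.028 for each). Of the 5 genes 4 also belong to the list of mast cell markers, of which 7 of 8 tested were lower (54.3% of all loci), 6 of them at unadjusted p under 0.05 (11.5% of all loci), and whose summed level was 237 and 244 FPKM in Ch25h_WT and 168 and 170 FPKM in Ch25h_KO. Fcer1a and Gata2 of that list had overlapping groups. The part of mast cell content in these values was not tested.

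Genes of MHC class II processing, in which Ctss, Ctsl and Ctsf take part, lay mostly on the other side. Of 9 tested, 6 were higher, all at unadjusted p under 0.05 (against 9.38% of all loci), and 3 were lower (Ifi30, H2-DMb2 and Ciita). None passed the adjusted threshold with limma, and the median was 0.29. The same 6 passed with the trend and robust options, where 407 of all 10074 loci passed on the higher side. H2-DMa, which helps load peptides, was 23.4 and 27.3 FPKM in Ch25h_WT and 37.2 and 39.6 FPKM in Ch25h_KO. H2-Ab1, a chain of the presenting molecule, was 617 and 598 against 821 and 766 FPKM (limma adjusted p = 0.097 for each). Among the 7221 loci whose mean reached 5 FPKM, where 175 passed, both did so (limma adjusted p = 0.048 for H2-DMa and 0.0496 for H2-Ab1). The thiol reductase gene Ifi30, which opens disulfide bonds of proteins for the cathepsins, was 253 and 266 against 239 and 241 FPKM, and H2-DMb2 was 23.7 and 24.5 against 19.0 and 22.2 FPKM (limma adjusted p = 0.34 and 0.26). H2 genes share similar sequence, so their levels are uncertain.

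Osteoclast genes were listed because Ctsk is known from that cell. Of 5 tested, 4 were higher and 1 lower, with a median of 0.085. None passed with limma, and at unadjusted p under 0.05 the count was 1, against 20.9% of all loci. Acp5, the acid phosphatase of osteoclasts and macrophages, was 185 and 182 against 187 and 181 FPKM (limma adjusted p = 0.97). Nfatc1, the factor that drives Ctsk in osteoclasts, was 24.7 and 24.0 against 28.7 and 30.5 FPKM, and passed with the trend and robust options (limma adjusted p = 0.12 in the main analysis). Oscar was listed at 0 in all libraries, and Calcr, Ocstamp and Atp6v0d2 were under 1 FPKM.

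**Figure D4:**
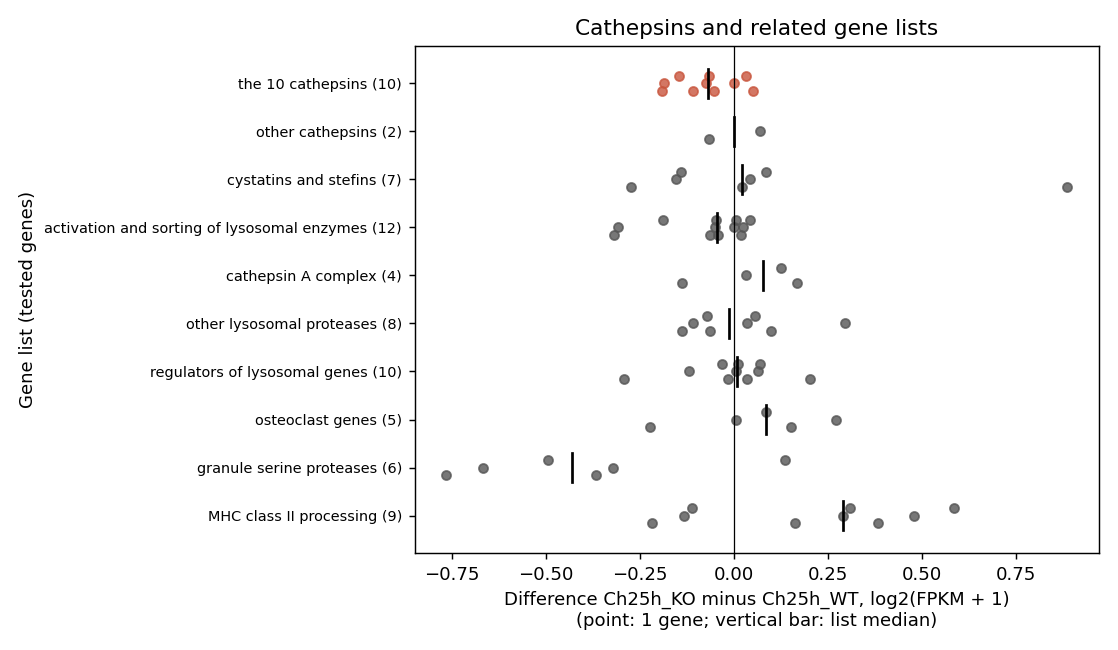
Difference between Ch25h_KO and Ch25h_WT on the log2(FPKM + 1) scale for each tested gene of the cathepsins and of related lists (1 point per gene, vertical bar at the list median, number of tested genes in brackets). The 10 cathepsins (top) have a median of -0.070, the granule serine proteases -0.43 and the MHC class II processing genes 0.29.

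Markers of the cell types that such cultures can hold are given beside these values. No gene of these lists passed the adjusted threshold in the main analysis. With the trend and robust options Cd14, Dcn, S100a8 and the dendritic cell marker Cd209a passed on the higher side (407 of all 10074 loci). Of the mast cell markers Cpa3, Cma1, Mcpt4, Tpsb2 and Tpsab1 passed on the lower side (379 of all 10074 loci). Among macrophage markers 6 of 7 tested were on the lower side (54.3% of all loci), with a median of -0.033. The other, Cd14, was higher at unadjusted p under 0.05 (9.38% of all loci). Emr1, which encodes the macrophage antigen F4/80, was 418 and 425 against 381 and 388 FPKM (log2 difference -0.13, limma adjusted p = 0.25). B cell markers were lower for 5 of 6 tested (54.3% of all loci), with a median of -0.12. In these 5 the groups did not overlap (30.3% of all loci), and 2 had an unadjusted p under 0.05 (11.5% of all loci). The B cell list summed to 320 and 324 against 287 and 302 FPKM. Of the fibroblast and mesothelial list, whose cells can express Ctsk, 1 of 9 genes was tested. This gene, Dcn, was higher at unadjusted p under 0.05 (9.38% of all loci). The summed level of that list was 1.70 and 1.19 against 4.65 and 3.94 FPKM. Of 9 measured neutrophil markers 2 were tested. S100a8 was 56.3 and 66.6 against 99.0 and 98.7 FPKM. S100a9 was 13.6 ± 0.316 against 15.7 ± 1.11 FPKM (SD, n = 2 libraries per group). Both were higher at unadjusted p under 0.05 (9.38% of all loci). The other 7 lay under 2 FPKM and went in both directions. Camp was 0.906 and 1.36 against 0.880 and 0.471 FPKM, and Mpo 0.061 and 0.038 against 0 and 0 FPKM. Ngp was 0 and 0 against 0.091 and 0.292 FPKM. The T and NK cell list summed to 3.84 to 6.29 FPKM with 1 gene tested. The dendritic cell list summed to 42.9 to 52.5 FPKM, with 2 of 3 tested genes higher and 1 lower (54.3% of all loci were lower). The part of any of these cells in the cathepsin levels was not tested.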

How the data were processed

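RNA-seq values of 4 libraries (2 per genotype, grouped by sample title) were analysed. Per the submitters' processing notes, bcl2fastq, TopHat2 2.0.14, Cufflinks 2.2.1 and build mm9 were used. Steps not given in the sources used here include the annotation, strandedness, filters and any scaling of the libraries. The authors deposited values that fit FPKM, in a table whose header names no unit. Its 24192 lines were joined into 23735 loci, and 0 columns were left out. limma 3.58.1 in R 4.3.3 was run on log2(FPKM + 1) over loci whose mean reached 1 FPKM, with genotype as the single term, and tested on simulated data. Fold changes on this scale understate the change of low genes. FPKM are not counts, so no count test was run. Relative depth was the most common ratio among values under 0.5 FPKM; 85.9% of 2274 loci with a mean under 0.2 FPKM then held whole multiples (tolerance 0.01 fragments, in proportion to the count), and 0.03 fragments was the tolerance for the low cathepsins. Depth in fragments used GENCODE vM21 transcript lengths and is approximate.

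Named genes were the 10 members, the other cathepsins, and from each list those past the threshold plus, among genes with a mean of at least 5 FPKM, the 2 with the smallest p on each side. Further genes in the text were picked with their values in view. The members and lists were chosen with earlier results of these data known. A comparison of protein sequences was planned and not run here.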

Additional observations from a re-analysis of the deposited data

How the results depend on the processing

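The count of loci past the threshold was 44 and depended on the settings. It was 18 with no filter on low values, 175 among loci whose mean reached 5 FPKM, 786 with limma's trend and robust options, and 22 after rescaling to a fixed total without Saa3. With a library left out, which leaves a lone library assumed to vary like the other group, it ranged from 13 to 21 (15 and 21 without Ch25h_WT replicates 1 and 2, 13 and 14 without Ch25h_KO replicates 1 and 2). With the replicate number as a block it was 6 (replicate block). The numbers are not stated to pair the libraries (the correlation of the deviations of replicate 1 in both groups was 0.012), and the block changed no call of a member. The count of cathepsins past the threshold was 0 in all settings but the trend and robust options, where it was 2. Over all 12 settings the log2 difference of Ctsd lay between -0.21 and -0.18. Ctse and Ctsk had no value among loci whose mean reached 5 FPKM. Directions of small differences reversed. After rescaling without Saa3, Ctsh was -0.024, Cstb -0.0043 and Acp5 -0.020. With 1 library left out, the values ran from -0.11 to 0.0051 for Ctse, -0.032 to 0.13 for Ctsf, -0.035 to 0.037 for Ctsh, -0.17 to 0.038 for Ctso, -0.0062 to 0.048 for Cstb, -0.015 to 0.064 for Gnptg and -0.016 to 0.026 for Acp5. Without Ch25h_WT replicate 1, Ctse was 0.0051, Ctsf -0.032, Ctsh -0.035, Cstb -0.0062 and Gnptg -0.015. Acp5 was -0.0070 without Ch25h_WT replicate 2 and -0.016 without Ch25h_KO replicate 1. Ctse was 0.00040 without Ch25h_KO replicate 1, and without Ch25h_KO replicate 2 Ctsh was -0.014 and Ctso 0.038. The cause was not tested. With all measured cathepsins in the sum, the share of Ctsd was 43.5% in Ch25h_WT and 41.4% in Ch25h_KO, and that of Ctsd, Ctsb and Ctsz together was 75.7% and 73.2%, because the sum then holds more genes. Among the 10 cathepsins Ctsk rested on the fewest fragments, at most 30 in a library. Its difference ran from -0.33 to -0.051 with 1 library left out and was -0.33 at a pseudocount of 0.1. Prtn3, Tpsb2, H2-Ab1 and H2-DMa passed among loci whose mean reached 5 FPKM, where 175 of 7221 passed.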
